A study of Mus musculus with 37 samples.

Results

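The 9 genes described here belong to transforming growth factor beta (TGF-beta) signalling and the scarring it drives: the ligands Tgfb1, Tgfb2 and Tgfb3, the receptor gene Tgfbr1, the TGF-beta-induced matrix gene Tgfbi, the protease inhibitor Timp1, the matrix gene Fn1, the ligand activator Thbs1 and the opposing growth factor Bmp7. They were picked by symbol from the 32108 genes of a mouse RNA-seq table, and all 9 were found there once. TGF-beta is secreted in a latent form bound to its propeptide and is released by thrombospondin 1, integrins or proteases. It then joins the type II receptor to the type I receptor that Tgfbr1 encodes, and the SMAD proteins these phosphorylate switch on matrix genes and protease inhibitors. In the glomerulus, the filter of the kidney, this pathway is known for driving matrix build-up and podocyte loss, while BMP-7, a relative that signals through other SMADs, is known for opposing it.

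The study asked how RNA on podocyte ribosomes changes in type 2 and type 1 diabetic kidney disease of the mouse. Podocytes are the epithelial cells that wrap the filter's capillaries. Their ribosome-bound RNA was pulled from C57BL/6 kidney by translating ribosome affinity purification (TRAP), in which a tagged ribosomal protein is made only in the chosen cells. The deposited tables carry podocin-Cre in their name, podocin being a podocyte protein, and the tag is not named in the labels.

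In the type 2 model, eNOS-/- db/db mice, which lack endothelial nitric oxide synthase and carry the diabetes mutation of the leptin receptor gene, were set against eNOS-/- mice. The deletion of eNOS was therefore shared by all libraries of this model, diabetic and control. There were 5 diabetic and 5 control libraries at 3 months of age, and 3 diabetic and 4 control libraries at 6 months. The type 1 model used streptozotocin (STZ), a toxin of the insulin-producing cells, and set treated mice against mice with no STZ. There were 5 diabetic and 4 control libraries at 3 weeks of STZ (age 3 months) and 5 of each at 24 weeks (age 8 months). The labels give no genotype for the type 1 mice, and drug effects of STZ and effects of diabetes cannot be told apart. Total RNA of whole kidney, from an eNOS-/- control at 3 months, gave 1 more library. Whether the libraries of a group come from different animals is not stated in the labels. The p-values therefore rest on the spread between libraries, which may be technical.

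The 36 TRAP libraries held 6702120 to 37786025 counts each, and the kidney library 28033680. The podocyte label held against its markers: Nphs1 (nephrin), Wt1 and Podxl were 117, 139 and 65.7 times higher in the 5 TRAP libraries of 3-month eNOS-/- controls than in the kidney library. Lepr, the gene of the leptin receptor, had 1.11 to 2.46 CPM in eNOS-/- db/db and 1.34 to 3.48 CPM in eNOS-/- libraries at 3 months, and 1.52 to 2.89 CPM in eNOS-/- db/db and 2.74 to 4.00 CPM in eNOS-/- libraries at 6 months. The ranges overlapped at both ages, so the gene total does not tell the genotypes apart. CPM is the read count scaled to a common library total, and in TRAP libraries it was also scaled by edgeR's TMM factors. Nos3, the gene of eNOS, was still read at 2.01 to 10.4 CPM in the eNOS-/- libraries, and the labels do not say which exons the deletion removes, so the gene total does not check it. In the type 2 model at 3 months, diabetic libraries 4 and 5 stood apart from the others of their group. In the type 1 model at 3 weeks, diabetic libraries 1 to 3 did so. The values of these libraries are given below for some genes and for marker sums. Other results, those of the pathway genes among them, are given only over the whole group, as a mean and SD, a log2 change or a pooled count.

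All 9 genes are protein coding, and the deposited coordinates match the GRCm38 build. Tgfb1 spans chr7:25687002-25705077, Tgfb2 chr1:186622792-186705989 and Tgfb3 chr12:86056744-86079041. Tgfbr1 spans chr4:47353222-47414931, Tgfbi chr13:56609603-56639339 and Timp1 chrX:20870166-20874735. Fn1 spans chr1:71585520-71653200, Thbs1 chr2:118111876-118127133 and Bmp7 chr2:172868012-172940321. Genes on the opposite strand overlap Tgfb2, Tgfb3, Timp1, Fn1 and Thbs1, and the sources used here do not say if counting used the strand, so reads of such pairs may not be told apart.

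RefSeq's promoter table (GRCm38.p6) held an entry for 5 of the 9 genes, and the 250 bases before the start of each are shown because the RNA of all 5 differed between diabetic and control libraries in at least 1 comparison. They are those of Tgfb1 (chr7:25686752-25687001, plus strand), Tgfb2 (chr1:186705990-186706239, minus strand), Tgfbr1 (chr4:47352972-47353221, plus strand, the start that matches the deposited table), Timp1 (chrX:20869916-20870165, plus strand) and Tgfbi (chr13:56609336-56609585, plus strand). Capitals mark matches on either strand to a GC box (GGGCGG or CCGCCC), a SMAD motif (CAGACA or TGTCTG), or a TATA box (TATAAA or TTTATA). No motif match overlaps another.
Tgfb1: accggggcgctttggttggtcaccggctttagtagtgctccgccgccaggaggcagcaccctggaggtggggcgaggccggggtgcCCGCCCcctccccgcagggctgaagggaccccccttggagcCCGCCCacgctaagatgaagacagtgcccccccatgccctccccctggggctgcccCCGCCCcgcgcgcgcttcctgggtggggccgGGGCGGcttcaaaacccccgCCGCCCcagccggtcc
Tgfb2: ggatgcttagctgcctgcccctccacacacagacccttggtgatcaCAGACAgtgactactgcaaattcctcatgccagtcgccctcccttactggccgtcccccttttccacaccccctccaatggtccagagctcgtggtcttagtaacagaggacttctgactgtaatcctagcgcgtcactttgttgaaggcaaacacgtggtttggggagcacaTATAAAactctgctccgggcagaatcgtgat
Tgfbr1: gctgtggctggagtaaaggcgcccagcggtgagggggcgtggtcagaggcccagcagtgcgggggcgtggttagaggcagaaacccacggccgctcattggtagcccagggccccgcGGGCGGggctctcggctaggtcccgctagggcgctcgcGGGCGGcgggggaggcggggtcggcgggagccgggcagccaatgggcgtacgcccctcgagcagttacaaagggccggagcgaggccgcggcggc
Timp1: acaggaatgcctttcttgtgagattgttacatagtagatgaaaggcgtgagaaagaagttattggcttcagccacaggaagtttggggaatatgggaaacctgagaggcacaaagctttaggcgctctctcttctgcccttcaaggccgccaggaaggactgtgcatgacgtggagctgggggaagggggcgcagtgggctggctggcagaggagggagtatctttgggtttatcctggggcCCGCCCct
Tgfbi: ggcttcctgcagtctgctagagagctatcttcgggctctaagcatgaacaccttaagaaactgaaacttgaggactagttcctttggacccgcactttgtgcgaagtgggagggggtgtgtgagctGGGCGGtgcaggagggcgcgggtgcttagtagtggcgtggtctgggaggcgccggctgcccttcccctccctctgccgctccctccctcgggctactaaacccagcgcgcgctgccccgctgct

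The Tgfb1 stretch, 75.2% G or C, held 5 GC boxes and no TATA box, and 32.7% of 32851 mouse promoters of this length held a GC box. The Tgfbr1 stretch, 74.8% G or C, held 2 GC boxes and none of the other motifs. The Tgfb2 stretch held a TATA box 31 bases before the start, as 12.4% of promoters did somewhere in the window, and a SMAD motif 204 bases before the start, as 17.1% did. Timp1 and Tgfbi held 1 GC box each, 8 and 124 bases before the start, and neither a SMAD motif nor a TATA box. The AP-1 motif TGANTCA, present in 6.7% of promoters, was in none of the 5. The start that RefSeq gives for Tgfbi lies a few bases before the one in the deposited table. These matches describe letters, and binding was not measured.

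On the scale of deposited FPKM, which divides the count by gene length and library total, Bmp7 was the highest of the 9 genes in 3-month eNOS-/- control TRAP libraries, at 36.1 ± 3.72 FPKM (SD, n = 5). Thbs1 followed at 15.2 ± 2.66 FPKM, then Tgfb1 at 7.90 ± 0.687 FPKM and Tgfbr1 at 6.03 ± 0.915 FPKM. Tgfbi (2.14 ± 0.661 FPKM), Fn1 (1.92 ± 0.580 FPKM) and Tgfb3 (1.39 ± 0.122 FPKM) formed the next tier. Tgfb2, at 0.566 ± 0.207 FPKM, and Timp1, at 0.379 ± 0.323 FPKM, were lowest. Between neighbours in this order the libraries overlapped for Tgfb1 and Tgfbr1, for Tgfbi and Fn1, for Fn1 and Tgfb3, and for Tgfb2 and Timp1, so these pairs cannot be ranked. Among the 3 ligands Tgfb1 made up 77.2 to 83.0% of the summed FPKM in these libraries and 82.5% in the kidney library.

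By group mean, the order changed most for Tgfbi in the 3 diabetic libraries at 6 months. It had 72.2 ± 95.4 FPKM there (SD, n = 3), against 2.72 ± 0.670 FPKM in controls (SD, n = 4). Its range of 7.48 to 182 FPKM overlapped that of Bmp7, the next gene, so this pair cannot be ranked. Bmp7 had 29.4 ± 3.12 FPKM in the same diabetic libraries and 53.8 ± 26.8 FPKM in the controls. Tgfb1 had 24.2 ± 1.49 FPKM in the diabetic libraries and 8.58 ± 1.22 FPKM in controls.

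**Figure D1:**
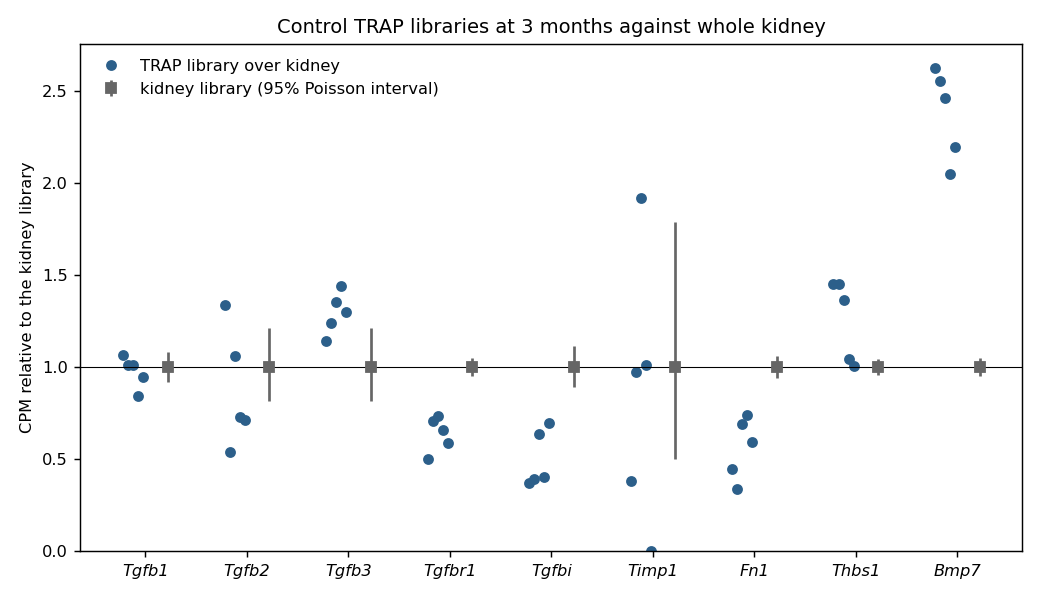
Plain CPM of each gene in the 5 TRAP libraries of 3-month eNOS-/- controls, divided by its CPM in the kidney library (points), beside the kidney library at 1 with its 95% Poisson interval (squares). All 5 points for Bmp7 lie above 2, whereas those of Tgfbr1, Tgfbi and Fn1 all lie below 1.

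Podocyte TRAP was then set against whole kidney, on CPM without TMM scaling, to see which of the 9 genes the pull-down enriched. Bmp7 was higher in TRAP, with 145 ± 14.9 CPM (SD, n = 5) against 61.0 CPM in kidney (95% Poisson interval 58.1 to 63.9), a ratio of 2.38. Thbs1 had 92.1 ± 16.2 CPM in TRAP against 72.8 CPM (69.7 to 76.1) in kidney, and Tgfb3 had 4.71 ± 0.412 CPM in TRAP against 3.64 CPM (2.97 to 4.42). In each of these 3 genes the lowest TRAP library was above the kidney value, by little for Thbs1 (73.3 CPM). Of all 13455 genes with a mean of 1 CPM or more in TRAP and a read in kidney, 37% had every TRAP library above kidney and 31.3% every one below.

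The matrix genes and the receptor were lower in TRAP: Fn1 at 0.561 of the kidney level, Tgfbi at 0.498 and Tgfbr1 at 0.638, each with all 5 TRAP libraries below the kidney value. These counts, 3 genes above and 3 below, are near those shares of all genes. For Tgfb1, Tgfb2 and Timp1 the kidney value fell between the lowest and the highest TRAP library, with ratios of 0.975, 0.875 and 0.857. Across the 13455 genes, 53.9% were higher in TRAP, and the median ratio was 1.05. None of the 9 ratios came near those of the podocyte markers. The single kidney library allows no test. Its intervals cover counting error only, since reads carry no molecular identifiers.

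In the type 2 model at 3 months, ligand, inhibitor and matrix genes were higher in diabetic than in control libraries. Of the 9 genes 4 were called higher and none lower, Tgfb1, Tgfb2, Timp1 and Fn1, where 3.99% of all 17180 genes tested were called, 2.03% higher and 1.96% lower. A gene is called where its adjusted p from edgeR's quasi-likelihood test with Benjamini-Hochberg adjustment is under 0.05. Diabetic and control libraries did not overlap in 3 of the 9 genes, each higher in diabetic libraries, against 6.76% of all genes (2.90% higher and 3.86% lower). The median log2 change was 1.26 over the 9 genes and 0.04 over all genes. Most of the rise of the 4 called genes lay in diabetic libraries 4 and 5.

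Tgfb1, the ligand most often tied to kidney scarring, had 23.4, 30.9, 27.4, 71.6 and 62.6 CPM in diabetic libraries 1 to 5, against 21.97, 20.3, 20.7, 18.3 and 19.8 CPM in control libraries. The groups did not overlap, and libraries 4 and 5 were far above the other 3 diabetic libraries. The log2 change was 1.09 (SE 0.24, adjusted p = 0.0115). Tgfb2, a ligand best known from development, had 10.4, 5.92, 5.34, 32.0 and 14.0 CPM in diabetic libraries against 4.98, 1.95, 3.93, 2.86 and 2.69 CPM in controls. All 5 diabetic libraries were above every control, library 4 by far the most, and the log2 change was 2.04 (SE 0.45, adjusted p = 0.0129). Tgfb3, the third ligand, had 11.4 ± 7.65 CPM in diabetic and 4.72 ± 0.520 CPM in control libraries (SD, n = 5 each) and was not called (log2 change 1.26, adjusted p = 0.0851).

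Timp1, which encodes an inhibitor of matrix metalloproteinases, had 1.24, 1.92, 0.983, 16.1 and 4.19 CPM in diabetic libraries, against 0.149, 0.369, 0.746, 0.415 and 0 CPM in controls. The lowest diabetic library was above the highest control, and the control library with no read allows up to 0.149 CPM, the level of 3 reads. The log2 change was 3.84 (SE 0.86, adjusted p = 0.0139). Syn1, which overlaps Timp1 on the opposite strand, was not called (log2 change -0.20, adjusted p = 0.864).

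Fn1, which encodes fibronectin, the scaffold of provisional and scar matrix, had 35.5, 26.98, 30.03, 207 and 124 CPM in diabetic libraries, against 17.7, 13.0, 27.4, 31.0 and 24.0 CPM in controls. Libraries 4 and 5 were far above every control, while libraries 2 and 3 overlapped the controls. The log2 change was 1.90 (SE 0.50, adjusted p = 0.0448). Tgfbi, an adhesive matrix gene named for its induction by TGF-beta, showed the same split, with 5.60, 4.72, 6.45, 39.9 and 18.7 CPM in diabetic libraries against 4.20 to 8.06 CPM in controls, and was not called (log2 change 1.40, SE 0.72, adjusted p = 0.362). Tgfbr1 (0.34, adjusted p = 0.425), Bmp7 (0.31, adjusted p = 0.525) and Thbs1 (-0.16, adjusted p = 0.762) were not called either, by edgeR.

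Several marker lists of other cells moved with these values, and others did not. Libraries 4 and 5 had the lowest sums over 10 podocyte markers, 14370 and 16339 CPM, against 25596 to 28229 CPM in diabetic libraries 1 to 3 and 24493 to 38312 CPM in controls. Their sums over 10 macrophage and monocyte markers were 280.2 and 155 CPM, against 42.8 to 51.7 CPM in libraries 1 to 3 and 55.1 to 77.9 CPM in controls. Mesangial and smooth muscle markers summed to 828 and 555 CPM in the 2 libraries, against 237 to 305 CPM in the other 3 and 164 to 210.1 CPM in controls. Fibroblast markers summed to 1186 and 576 CPM, against 264 to 275 CPM and, in controls, 322 to 586 CPM, so library 5 lay within the controls. Parietal epithelium and injured tubule sums of both libraries were above every control. Proximal tubule sums were 2606 and 6497 CPM (controls 4986 to 8462). Sums for loop of Henle, distal tubule and collecting duct were 1255 and 1723 CPM (controls 1789 to 2369). Endothelial sums were 255 and 372 CPM (controls 242 to 327). As lists, 0 of 10 podocyte, 0 of 10 macrophage, 0 of 10 fibroblast, 2 of 10 mesangial and all 6 injured tubule markers were called, each of them higher in diabetic libraries. No marker of these lists was at 0 in all libraries of a group.

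A fit without libraries 4 and 5 was added after their high values were seen. Without them none of the 9 genes was called, where 418 of all genes were. The log2 changes were then 0.44 for Tgfb1 (adjusted p = 0.116), 1.14 for Tgfb2 (adjusted p = 0.137), 2.03 for Timp1 (adjusted p = 0.194), 0.46 for Fn1 (adjusted p = 0.496) and -0.01 for Tgfbi. Without library 4 alone, Timp1 (2.62, adjusted p = 0.0653) and Fn1 (1.27, adjusted p = 0.136) were no longer called by edgeR. Fn1 also lost its call without diabetic library 5 (1.71) and without any single control library (1.76 to 2.04). It was also not called with no filter on low counts (adjusted p = 0.125), by limma on FPKM (adjusted p = 0.109) or with only the 2 groups fitted (adjusted p = 0.0856), and was called in 7 of 19 alternatives. Timp1 was not called with all 36 libraries in the fit (adjusted p = 0.0954), and was called in 15 of 19 alternatives. With a block for the library number, Tgfb1 (adjusted p = 0.0787), Timp1 (adjusted p = 0.0926) and Fn1 (adjusted p = 0.0826) were not called by edgeR. TRAP of a whole tissue sample cannot tell fewer cells of a type apart from less RNA per cell, and the part of the marker shifts in these results was not tested.

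**Figure D2:**
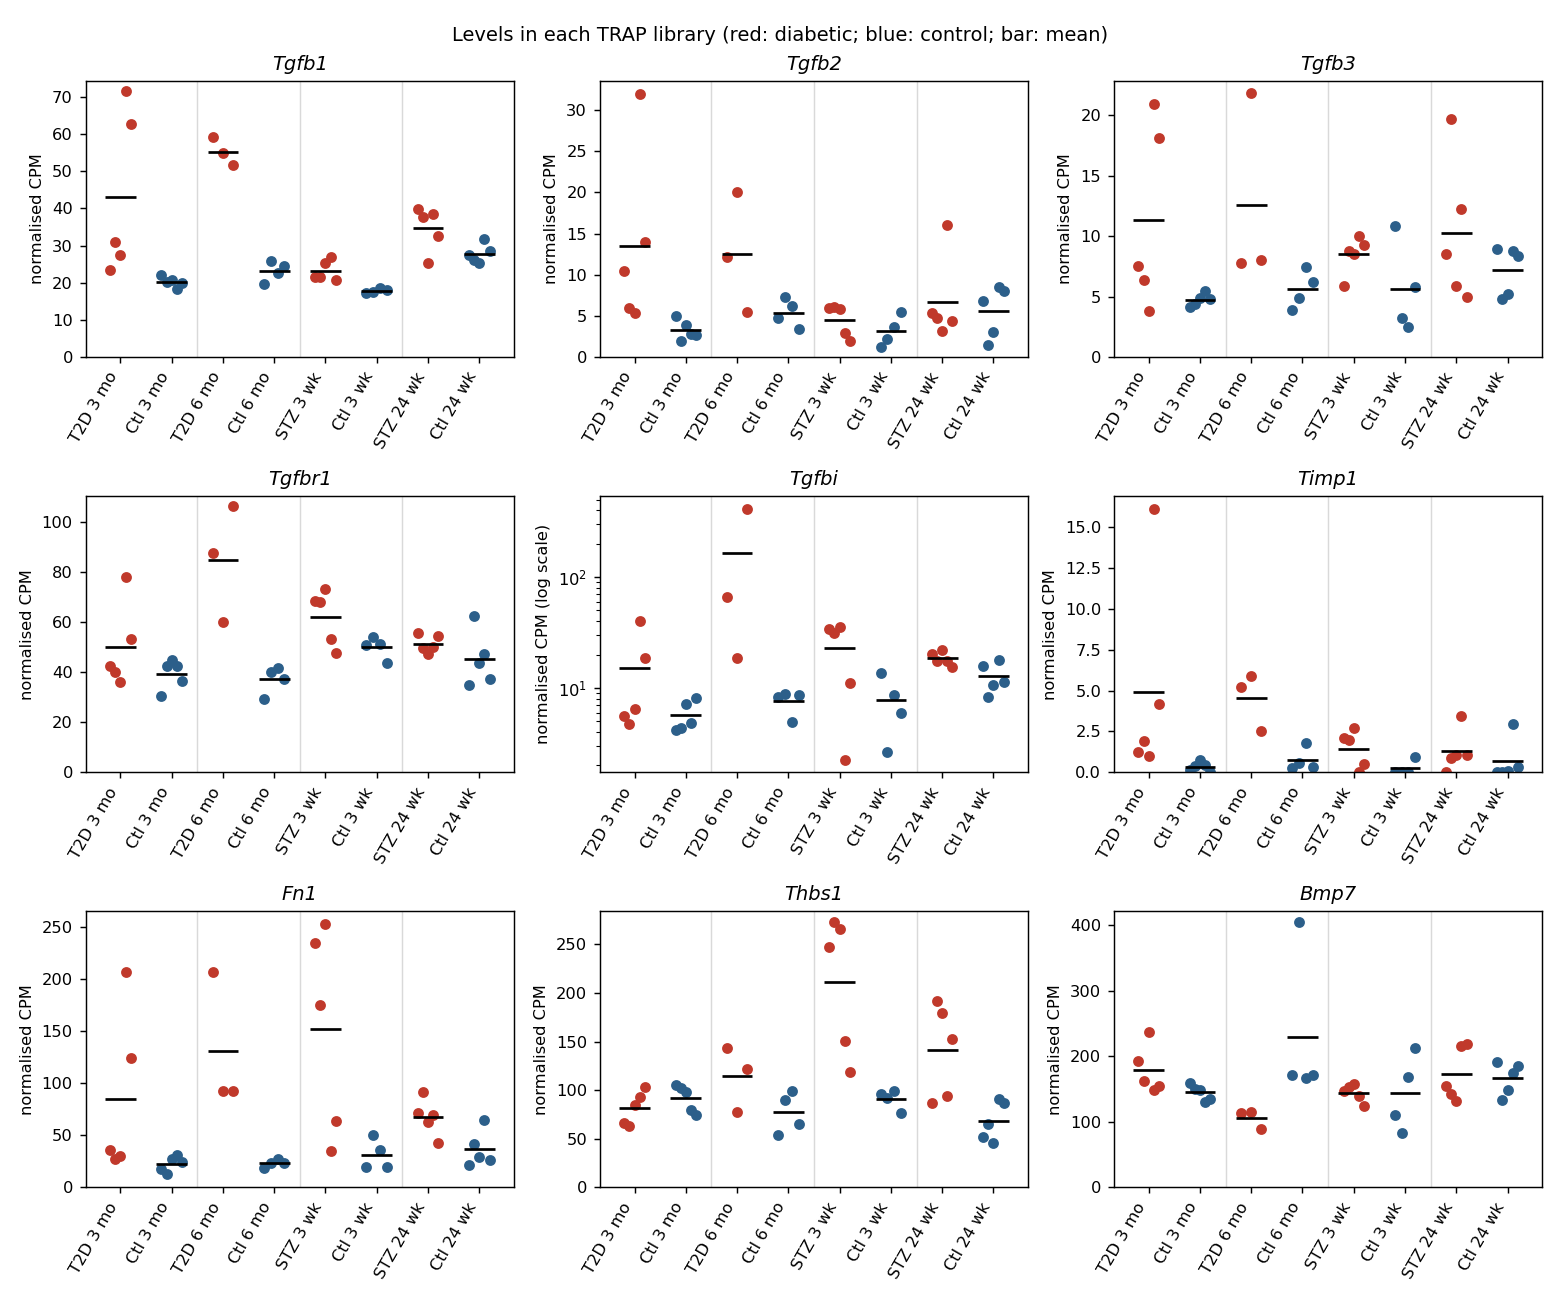
TMM-scaled CPM of each gene in every TRAP library, diabetic groups in red and controls in blue, with the group mean as a bar (Tgfbi on a log axis, the others from 0). In the type 2 model at 3 months 2 of 5 diabetic points carry most of the difference in Tgfb1, Tgfb2, Timp1 and Fn1. At 6 months the 3 diabetic points of Tgfb1 (51.6 to 59.3) lie above all 4 controls (19.6 to 25.8).

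In the type 2 model at 6 months, 4 of the 9 genes were called higher and 1 lower in diabetic libraries, where 22.9% of 17180 genes were called, 11.2% higher and 11.7% lower. Tgfb1, Tgfbr1, Tgfbi and Fn1 rose and Bmp7 fell. All 9 genes had an unadjusted p under 0.05, as had 6336 of the 17180 genes. Diabetic and control libraries did not overlap in 7 of the 9 genes, against 29.6% of all genes. The median log2 change was 1.23 over the 9 genes and -0.01 over all genes.

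Tgfb1 had 59.3, 54.8 and 51.6 CPM in diabetic libraries 1 to 3, against 19.6, 25.8, 22.6 and 24.6 CPM in controls. The 3 diabetic libraries were close to each other and far above the highest control, and the log2 change was 1.26 (SE 0.28, adjusted p = 0.00478). The other ligands varied more. Tgfb2 had 12.1, 20.04 and 5.46 CPM in diabetic libraries against 3.36 to 7.35 CPM in controls, and Tgfb3 had 7.80, 21.8 and 8.00 CPM against 3.91 to 7.43 CPM. Tgfb2 overlapped the controls and Tgfb3 did not, by a small margin. Neither was called (log2 change 1.23, adjusted p = 0.0945 for Tgfb2, and 1.17, adjusted p = 0.0773 for Tgfb3, by edgeR). Without diabetic library 2 the changes were 0.74 for Tgfb2 and 0.50 for Tgfb3.

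Tgfbr1, the kinase receptor that passes the ligand's signal to SMAD2 and SMAD3, had 87.6, 60.03 and 107 CPM in diabetic libraries, against 29.4, 40.1, 41.7 and 37.4 CPM in controls. The lowest diabetic library was well above the highest control, and the log2 change was 1.20 (SE 0.23, adjusted p = 0.00198). Tgfbi had 66.1, 18.7 and 414 CPM in diabetic libraries, against 8.35, 8.74, 4.92 and 8.71 CPM in controls. The groups did not overlap, and diabetic library 3 held most of the difference. Its log2 change of 4.45 (SE 0.91, adjusted p = 0.00408) was 2.48 without that library (adjusted p = 0.0380).

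Fn1 had 207, 92.3 and 92.3 CPM in diabetic libraries, against 18.2, 23.1, 27.1 and 23.7 CPM in controls. Every diabetic library was far above the highest control, and the log2 change was 2.52 (SE 0.60, adjusted p = 0.00830). Timp1 had 5.23, 5.87 and 2.54 CPM in diabetic libraries, against 0.261, 0.586, 1.78 and 0.339 CPM in controls. Its libraries did not overlap either, and its adjusted p lay just past the threshold (log2 change 2.62, SE 0.94, adjusted p = 0.0506 by edgeR). Thbs1, whose protein frees latent TGF-beta, had 144, 78.0 and 122 CPM in diabetic and 54.1 to 99.2 CPM in control libraries, overlapping, with a log2 change of 0.58 (adjusted p = 0.0749).

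Bmp7 went the other way. It had 114, 115.5 and 88.4 CPM in diabetic libraries, against 171, 406, 168 and 172 CPM in controls. All 3 diabetic libraries were below every control, and control library 2 stood far above the other controls. The log2 change was -1.10 (SE 0.26, adjusted p = 0.00658), and it was -0.69 (adjusted p = 0.0129) without control library 2.

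At 6 months the podocyte marker sum was 9089, 15542 and 3255 CPM in diabetic libraries 1 to 3, against 26836 to 30869 CPM in controls, and all 10 podocyte markers were called lower with a median log2 change of -1.63. Bmp7 changed by -1.10, and by -0.69 without control library 2. Whether this is tied to the fall of the podocyte markers was not tested. Macrophage marker sums were 267, 166 and 277 CPM in diabetic libraries, against 72.6 to 114.5 CPM in controls, with 7 of 10 markers called higher. Fibroblast sums were 1095, 555 and 744 CPM against 289 to 541 CPM in controls (4 of 10 called higher). Mesangial sums were 644, 784 and 354 CPM against 195 to 240.4 CPM (6 of 10 called higher). Injured tubule markers were called higher in 6 of 6 and proximal tubule markers lower in 6 of 10. Library 3, with the highest Tgfbi, had the lowest podocyte sum and the fewest counts (6702120). The part of these shifts in the changes of the 9 genes was not tested.

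In the type 1 model at 3 weeks, Fn1 and Thbs1 rose in diabetic libraries, 2 of the 9 genes, where 6.5% of 16279 genes were called and 3.78% were called higher. The median log2 change was 0.58 over the 9 genes and 0.00 over all genes. Fn1 had 235, 175, 253, 35.01 and 64.1 CPM in diabetic libraries, against 19.1, 49.98, 35.7 and 19.6 CPM in controls. Libraries 1 to 3 were far above the controls, library 5 was above them by less, and library 4 lay among them. The log2 change was 2.28 (SE 0.50, adjusted p = 0.00976).

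Thbs1 had 247, 273, 266, 150.5 and 118 CPM in diabetic libraries, against 96.0, 91.8, 99.4 and 76.4 CPM in controls. All 5 diabetic libraries were above every control, with libraries 1 to 3 highest, and the log2 change was 1.20 (SE 0.28, adjusted p = 0.0107). Tgfb1 had 21.6, 21.6, 25.3, 26.97 and 20.6 CPM in diabetic libraries, against 17.2, 17.6, 18.7 and 18.1 CPM in controls. Its groups did not overlap, in common with Thbs1 and with 8.19% of all genes (4.53% higher and 3.66% lower), but the difference was small and not called (log2 change 0.36, SE 0.16, adjusted p = 0.197).

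Tgfbi had 33.8, 31.1, 35.8, 2.25 and 11.0 CPM in diabetic libraries, against 13.6, 2.67, 8.62 and 5.94 CPM in controls, the same split as in Fn1, and was not called (log2 change 1.56, SE 0.53, adjusted p = 0.0845). Timp1 had 2.12, 1.95, 2.68, 0 and 0.503 CPM in diabetic libraries, against 0, 0, 0 and 0.910 CPM in controls, where no read allows up to 0.222 to 0.229 CPM. It was not called (adjusted p = 0.396 by edgeR). Tgfb2, Tgfb3 and Tgfbr1 had log2 changes of 0.51, 0.58 and 0.30 and were not called, and Bmp7 had 144 ± 13.3 CPM in diabetic and 144 ± 58.6 CPM in control libraries (SD, n = 5 and 4).

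Diabetic libraries 1 to 3, with the high values, had podocyte marker sums of 10497 to 11856 CPM, against 21820 and 23946 CPM in libraries 4 and 5 and 12307 to 26176 CPM in controls. Their macrophage sums were 209.8 to 296 CPM, against 101 and 112 CPM in libraries 4 and 5 and 44.3 to 112 CPM in controls. The mesangial sums were 591 to 650.1 CPM, against 282 and 339.9 CPM and, in controls, 221 to 481 CPM. The 18S ribosomal RNA gene took 4.56 to 4.93% of counts in libraries 1 to 3, 8.34 and 11.0% in libraries 4 and 5, and 6.49 to 11.2% in controls. None of 10 podocyte markers, 5 of 10 macrophage markers, 3 of 10 mesangial markers and 4 of 6 injured tubule markers were called higher in diabetic libraries, and 6 of 10 proximal tubule markers were called lower. Without libraries 4 and 5, Fn1 (2.84, adjusted p = 0.000162), Thbs1 (1.53, adjusted p = 0.000948) and Tgfbi (2.13, adjusted p = 0.000869) were called by edgeR, among 1821 of all genes. Libraries 4 and 5 had the lowest Fn1, Thbs1 and Tgfbi of the diabetic group and were left out after this was seen. The stronger calls were therefore fixed in advance and add no support. The part of the marker shifts in these changes was not tested.

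**Figure D3:**
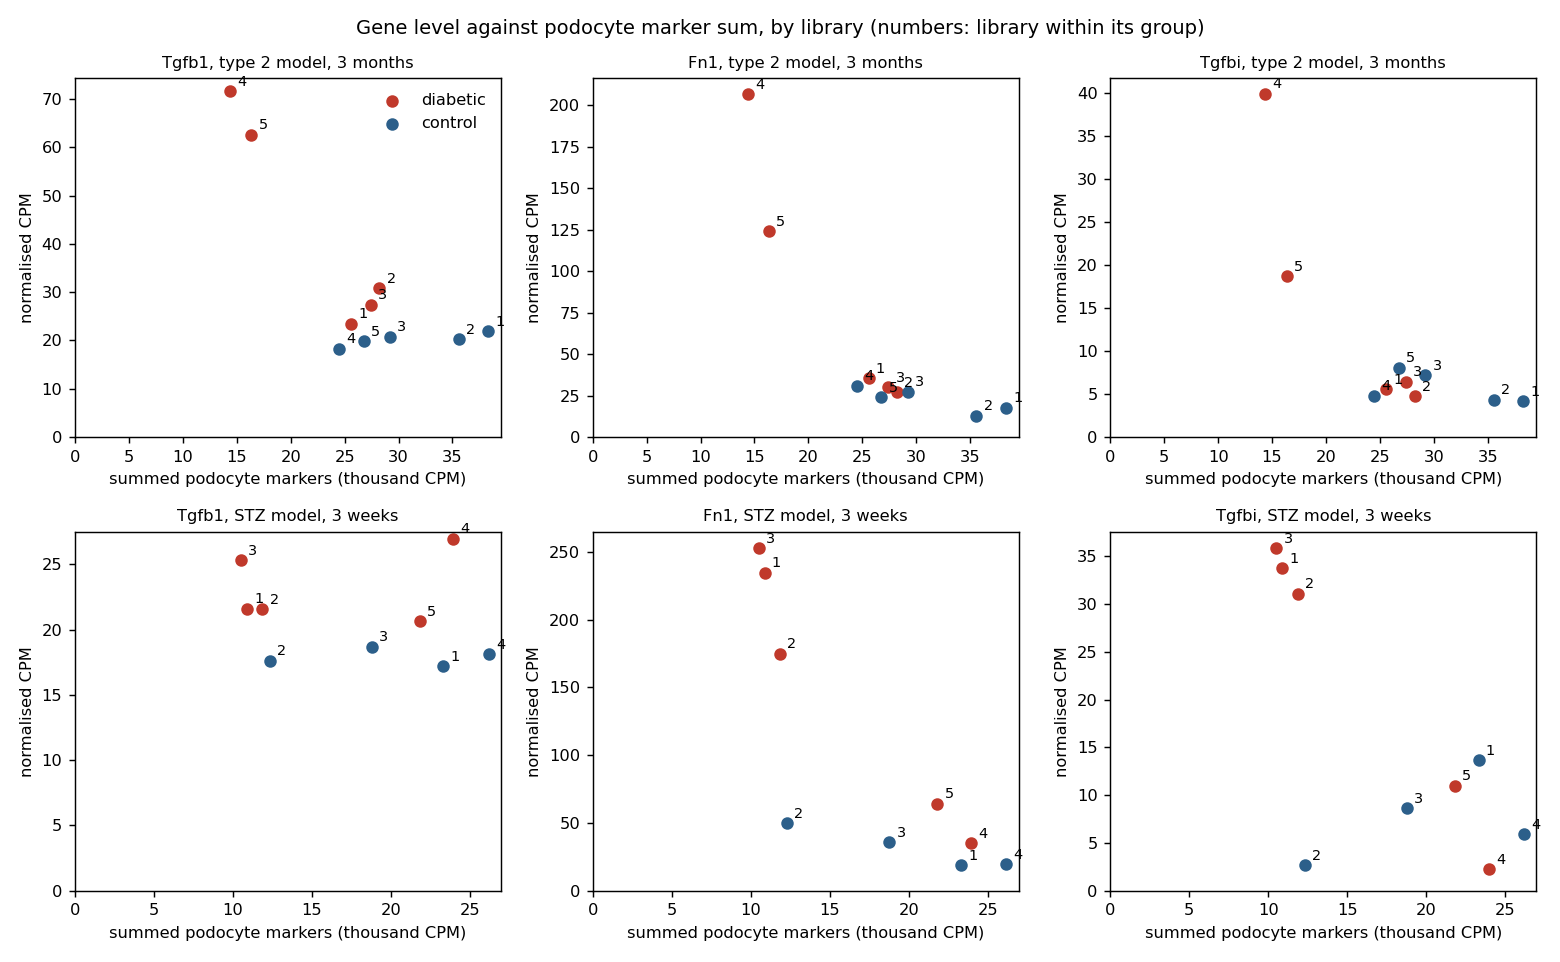
TMM-scaled CPM of Tgfb1, Fn1 and Tgfbi (left to right) against the summed CPM of 10 podocyte markers, for diabetic (red) and control (blue) libraries of the type 2 model at 3 months (top) and the STZ model at 3 weeks (bottom). Numbers give the library within its group. Diabetic libraries 4 and 5 in the top row and 1 to 3 in the bottom row combine low podocyte sums with high Fn1. Control library 2 in the bottom row also has a low podocyte sum (12307 CPM), with Fn1 at 49.98 CPM.

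At 24 weeks of STZ, Thbs1 was the only 1 of the 9 genes called, where 0.897% of 16279 genes were called and 0.448% were called higher. It had 86.7, 192, 179.6, 94.2 and 152 CPM in diabetic libraries, against 51.9, 64.7, 45.7, 90.5 and 87.1 CPM in controls. Diabetic library 1 overlapped the 2 highest controls and libraries 2, 3 and 5 stood well above them. The log2 change was 1.06 (SE 0.26, adjusted p = 0.0484). The call was lost in 7 of 10 fits that left out a library, with changes of 0.93 to 1.163: those without control library 1, 2, 3 or 5 or without diabetic library 2, 3 or 5.

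Fn1 had 71.8, 91.7, 62.6, 69.7 and 42.9 CPM in diabetic libraries, against 21.6, 41.4, 28.8, 64.5 and 26.5 CPM in controls. The groups overlapped and it was not called (log2 change 0.90, SE 0.45, adjusted p = 0.497). Tgfb1 had 34.8 ± 5.99 CPM in diabetic and 27.8 ± 2.54 CPM in control libraries (SD, n = 5 each), with a log2 change of 0.33 (adjusted p = 0.411 by edgeR). All 9 log2 changes were positive, none of the 9 genes had groups that did not overlap, against 3.34% of all genes (1.66% higher and 1.68% lower), and 48.4% of all genes had a positive change. The median change was 0.51 over the 9 genes and -0.01 over all genes. None of 10 podocyte, 10 mesangial, 10 macrophage and 9 fibroblast markers was called at this time, while 1 of 6 injured tubule markers and 1 of 10 markers of the loop of Henle, distal tubule and collecting duct were called higher. Podocyte sums were 5630 to 25509 CPM in diabetic libraries and 12099 to 27495 CPM in controls.

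**Figure D4:**
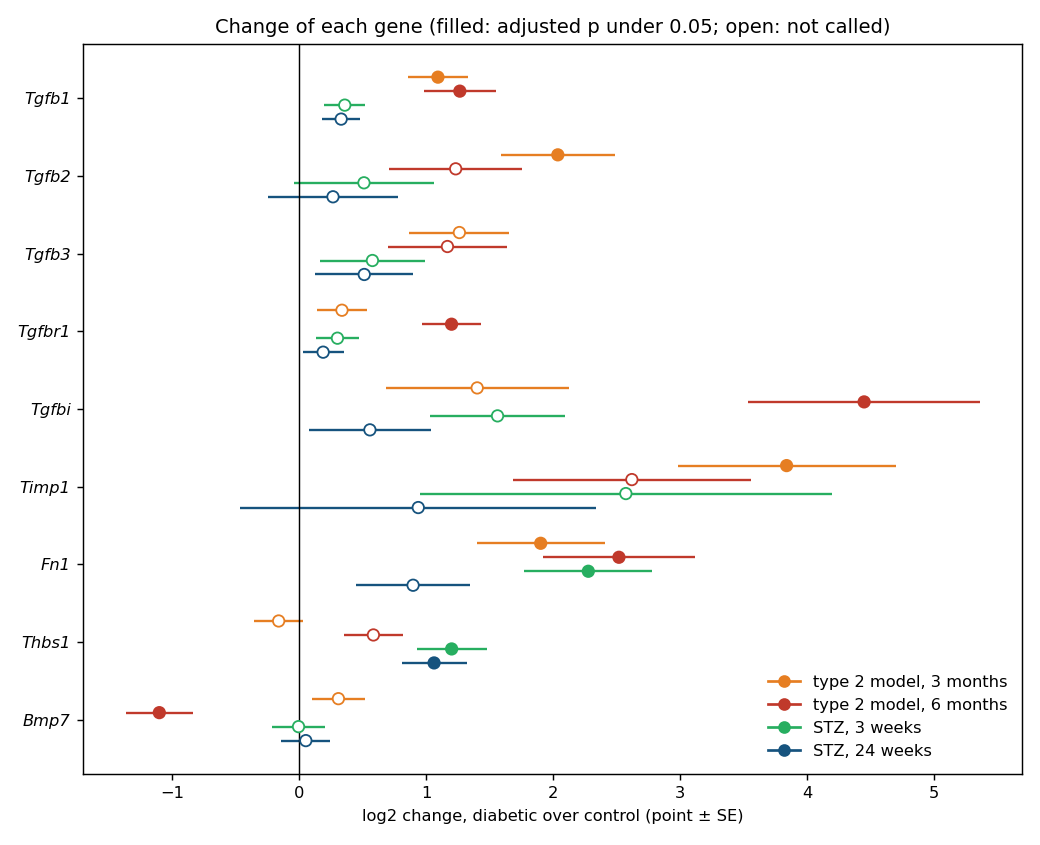
Log2 change of each gene in diabetic over control TRAP libraries with its standard error, in the 4 comparisons. Filled points have an adjusted p under 0.05. Fn1 is filled in 3 of 4 comparisons, Tgfb1 in both comparisons of the type 2 model and Thbs1 in both of the STZ model, and Bmp7 is the one filled point left of 0.

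The differences between these effects were tested as interactions. Between 6 and 3 months in the type 2 model none of the 9 genes and 0 of 17180 genes were called by edgeR, although 4 of the 9 and 3252 of all genes had an unadjusted p under 0.05. Bmp7 came closest: its change was -1.10 at 6 months and 0.31 at 3 months, a difference of -1.41 (SE 0.34, adjusted p = 0.108). By DESeq2, 576 genes were called, Bmp7 among them (-1.37, adjusted p = 0.0108). Tgfbi (3.05, adjusted p = 0.185), Tgfbr1 (0.86, adjusted p = 0.168) and Thbs1 (0.75, adjusted p = 0.207) were larger at 6 months but not called. Without diabetic library 3 at 6 months the difference for Tgfbi was 1.07 (adjusted p = 0.658). Leaving out diabetic library 2 at 6 months called these 4 genes, among 1911 of all genes. Leaving out diabetic library 4 at 3 months called Tgfbr1 and Bmp7, among 259 of all genes.

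Between 24 and 3 weeks of STZ none of the 9 genes and 0 of 16279 genes were called by edgeR, and DESeq2 called 64 genes and none of the 9. At an unadjusted p under 0.05 there were 1092 genes and 1 of the 9, Fn1, whose change was smaller at 24 weeks by 1.38 on the log2 scale (difference -1.38, SE 0.65, adjusted p = 0.734).

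Between the models, Thbs1 was the one gene of the 9 whose early effect differed, where 0.940% of 18511 genes were called, 0.373% higher and 0.567% lower. Its log2 change was -0.16 in the type 2 model at 3 months and 1.20 in the STZ model at 3 weeks, a difference of -1.38 (SE 0.35, adjusted p = 0.0414). In CPM, the 5 eNOS-/- db/db libraries had 62.8 to 103, whereas the 5 STZ libraries had 118 to 273. The call held in 6 of 19 fits that left out a library, with differences of -1.53 to -1.27 and adjusted p up to 0.0917. It also held without libraries 4 and 5 of either diabetic group (-1.58 and -1.69). Libraries 4 and 5 had the highest Thbs1 of the type 2 diabetic group and the lowest of the STZ group. A wider difference without them was therefore fixed in advance. The 13 libraries whose removal ended the call were control libraries 1 to 4 and diabetic libraries 1 to 3 of the type 2 model, and control libraries 1, 2 and 4 and diabetic libraries 1 to 3 of the STZ model.

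For the late effects, 6 months in the type 2 model minus 24 weeks of STZ, none of the 9 genes was called, against 0.438% of 18511 genes. An unadjusted p under 0.05 was seen in 2802 of all genes and in 5 of the 9: Tgfbi (3.89, adjusted p = 0.0667), Tgfbr1 (1.00, adjusted p = 0.0782), Bmp7 (-1.16, adjusted p = 0.0871), Tgfb1 (0.93, adjusted p = 0.136) and Fn1 (1.62, adjusted p = 0.326). DESeq2 called Tgfbi (4.08) and Tgfbr1 (1.13), among 470 of all genes. So did edgeR without diabetic library 2 at 6 months, among 549 of all genes. Without diabetic library 3 at 6 months the difference for Tgfbi was 1.91 (adjusted p = 0.511), and without control library 2 that for Bmp7 was -0.73 (adjusted p = 0.225), both by edgeR. The mice of the late comparison also differed in age, 6 months in the type 2 model and 8 months in the STZ model, which cannot be told apart from the kind of diabetes. With no genotype in the labels of the STZ mice, what else sets the models apart is not known.

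The rest of the pathway was read from 7 lists of 115 further genes tested in the type 2 model and 109 in the STZ model. At 3 months in the type 2 model 12 were called higher and 1 lower, with a median log2 change of 0.40 against 0.04 over all genes. At 6 months 35 were higher and 13 lower, at 3 weeks of STZ 15 were higher and 3 lower, and at 24 weeks 1 was higher. Of all genes, 2.03% were called higher and 1.96% lower at 3 months, and 11.2% and 11.7% at 6 months. In the STZ model these were 3.78% and 2.72% at 3 weeks, and 0.448% each at 24 weeks. Beside them the pathway genes gave 3 shares above that of all genes and, at 24 weeks, a share near it. The 13 lower calls of 115 at 6 months were near their share of all genes. Both the 9 genes and the lists were chosen with earlier results of these data known. A share above that of all genes is therefore no test of the pathway. The 13 calls at 3 months became 3 without diabetic libraries 4 and 5, 7 without library 4 and 6 to 9 without a control library. The 48 calls at 6 months became 27 without diabetic library 3, and the 18 at 3 weeks became 10 to 11 without diabetic library 1, 2 or 3 and 12 without control library 3.

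Among 20 genes that TGF-beta is known to induce, 5 were higher at 3 months, 7 at 6 months, and 3 higher with 2 lower at 3 weeks of STZ (of 19 tested). At 3 months these included Tagln, a smooth muscle actin-binding protein, with 179.8 ± 141 CPM in diabetic and 31.3 ± 3.12 CPM in control libraries (log2 change 2.51, adjusted p = 0.0107). Cdkn1a, a cell cycle inhibitor that p53 also induces, changed by 2.34 (adjusted p = 0.0232). At 6 months Cdkn1a had 64.6 ± 27.4 CPM in diabetic and 4.84 ± 2.39 CPM in control libraries (log2 change 3.74, adjusted p = 0.00162), and Lox, which cross-links collagen, changed by 2.57. At 3 weeks of STZ the called genes were led by Bgn, a small matrix proteoglycan (1.58, adjusted p = 0.00861), and Acta2, smooth muscle actin (1.20, adjusted p = 0.0125). Acta2 and Tagln are also in the mesangial marker list.

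Of 15 genes that store or activate latent TGF-beta, 1 was lower at 3 months, 4 were higher and 3 lower at 6 months, and 2 were higher at 3 weeks of STZ (of 14 tested). Over all genes, 11.2% were called higher and 11.7% lower at 6 months. Itgb8, the integrin subunit that frees TGF-beta from its propeptide, was lower in the type 2 model at both ages: 193 ± 11.8 CPM in diabetic and 285 ± 25.9 CPM in control libraries at 3 months (SD, n = 5 each, log2 change -0.56, adjusted p = 0.00892), and -0.74 at 6 months (adjusted p = 0.00213). Itgb5 fell at 6 months as well (-1.27, adjusted p = 0.00104), while Thbs2, a relative of Thbs1, had 18.01 ± 7.58 CPM in diabetic and 2.41 ± 0.882 CPM in control libraries (2.91, adjusted p = 0.0132). At 3 weeks of STZ Itgb6, another activating integrin subunit, had 182 ± 21.3 CPM in diabetic and 58.7 ± 18.1 CPM in control libraries (1.61, adjusted p = 0.00132), and Lrrc32, which tethers latent TGF-beta to the cell surface, changed by 1.69 (adjusted p = 0.00790).

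Among 11 further receptors none was called at 3 months, and 2 were higher and 3 lower at 6 months. At that age 11.2% of all genes were called higher and 11.7% lower. Tgfbr2, the type II receptor that binds the ligand, was 1 of the 2 higher ones (0.75, adjusted p = 0.0252) and the type I receptor Acvrl1 the other (1.14, adjusted p = 0.0286). The 3 lower ones were Tgfbr3, the co-receptor betaglycan (-0.87, adjusted p = 0.00266), and the BMP receptors Bmpr2 (-0.75, adjusted p = 0.00698) and Bmpr1a (-0.77, adjusted p = 0.0109), at the same age at which Tgfbr1 rose. At 3 weeks of STZ 1 was higher, again Acvrl1 (1.34, adjusted p = 0.00861). Of 15 SMADs and regulators, 5 were higher and 1 lower at 6 months. Smurf1, a ubiquitin ligase of SMADs, rose by 0.90 (adjusted p = 0.00278), its relative Smurf2 changed by -0.52 (adjusted p = 0.0105) and the co-repressor Tgif1 by 1.36 (adjusted p = 0.0229). Smad7, the inhibitory SMAD, was the single call at 3 weeks of STZ, lower at 45.4 ± 8.68 CPM in diabetic and 72.9 ± 29.5 CPM in control libraries (-0.71, adjusted p = 0.0498).

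Of 21 genes around BMP signalling 2 were higher at 3 months, 4 were higher and 3 lower at 6 months, and 3 were higher at 3 weeks of STZ. The 6-month counts stand beside 11.2% of all genes called higher and 11.7% lower, and are not read as a result about this list. Grem1, a secreted antagonist that binds BMPs, had 2.28 ± 3.37 CPM in diabetic and 0.207 ± 0.178 CPM in control libraries at 3 months in the type 2 model (3.44, adjusted p = 0.0317), and 20.8 ± 10.2 CPM in diabetic and 2.79 ± 2.71 CPM in control libraries at 3 weeks of STZ (2.89, adjusted p = 0.0405). Inhba, the activin A subunit, changed by 3.75 at 3 months (adjusted p = 0.0153). Fst, which binds activin, changed by 2.46 at 6 months (adjusted p = 0.000435) and by 1.98 at 3 weeks of STZ (adjusted p = 0.0198). At 6 months Bmp2 changed by 2.27 (adjusted p = 0.00942) and Bambi, a decoy receptor, by -1.17 (adjusted p = 0.00779). Sostdc1, another BMP antagonist, changed by 1.33 at 3 weeks of STZ (adjusted p = 0.0285).

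Of 22 matrix proteases and inhibitors 3 were higher at 3 months, 6 higher and 3 lower at 6 months, and 4 higher and 1 lower at 3 weeks of STZ (of 18 tested). Mmp10, a secreted metalloproteinase, had 269 reads over the 5 diabetic libraries at 3 months and 1 read over the 5 controls, a ratio of 256 between the groups' CPM (95% exact interval 45.6 to 10166, counting error only), and was called (adjusted p = 0.0100). Serpine2, a protease inhibitor, had 10.4 ± 5.83 CPM in diabetic and 3.61 ± 1.62 CPM in control libraries at 3 months (SD, n = 5 each, log2 change 1.53, adjusted p = 0.0109), and changed by 1.49 at 3 weeks of STZ (adjusted p = 0.00660). Mmp12, a macrophage elastase, changed by 3.45 at 3 months (adjusted p = 0.0319). Plat, tissue plasminogen activator, had 83.3 ± 41.1 CPM in diabetic and 479.6 ± 63.7 CPM in control libraries at 6 months (-2.51, adjusted p = 0.000589). At 6 months the membrane metalloproteinase Mmp14 changed by 3.22 (adjusted p = 0.00206) and the secreted protease Adamts1 by 2.33 (adjusted p = 0.00136), and both were also higher at 3 weeks of STZ (1.70, adjusted p = 0.00277, and 1.29, adjusted p = 0.00102).

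Of 16 fibronectin receptors and matricellular proteins 2 were higher at 3 months, 8 at 6 months, 2 at 3 weeks of STZ and 1 at 24 weeks. Spp1, osteopontin, was called in all 4 comparisons. It had 516 ± 317 CPM in diabetic and 81.0 ± 9.18 CPM in control libraries at 3 months and 905 ± 201 CPM in diabetic and 115.5 ± 21.6 CPM in control libraries at 6 months. In the STZ model it had 842 ± 135 CPM in diabetic and 148 ± 23.7 CPM in control libraries at 3 weeks, and 515 ± 220.2 CPM in diabetic and 189.6 ± 133 CPM in control libraries at 24 weeks (log2 change 1.46, adjusted p = 0.0370). Itga5, whose protein forms the classical fibronectin receptor with integrin beta 1, was called higher in the type 2 model, by 1.146 at 3 months (adjusted p = 0.0251) and 1.90 at 6 months (adjusted p = 0.00107). Matn2 changed by 1.94 at 6 months (adjusted p = 0.00259) and Fbn1, fibrillin 1, by 1.60 at 3 weeks of STZ (adjusted p = 0.00866).

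**Figure D5:**
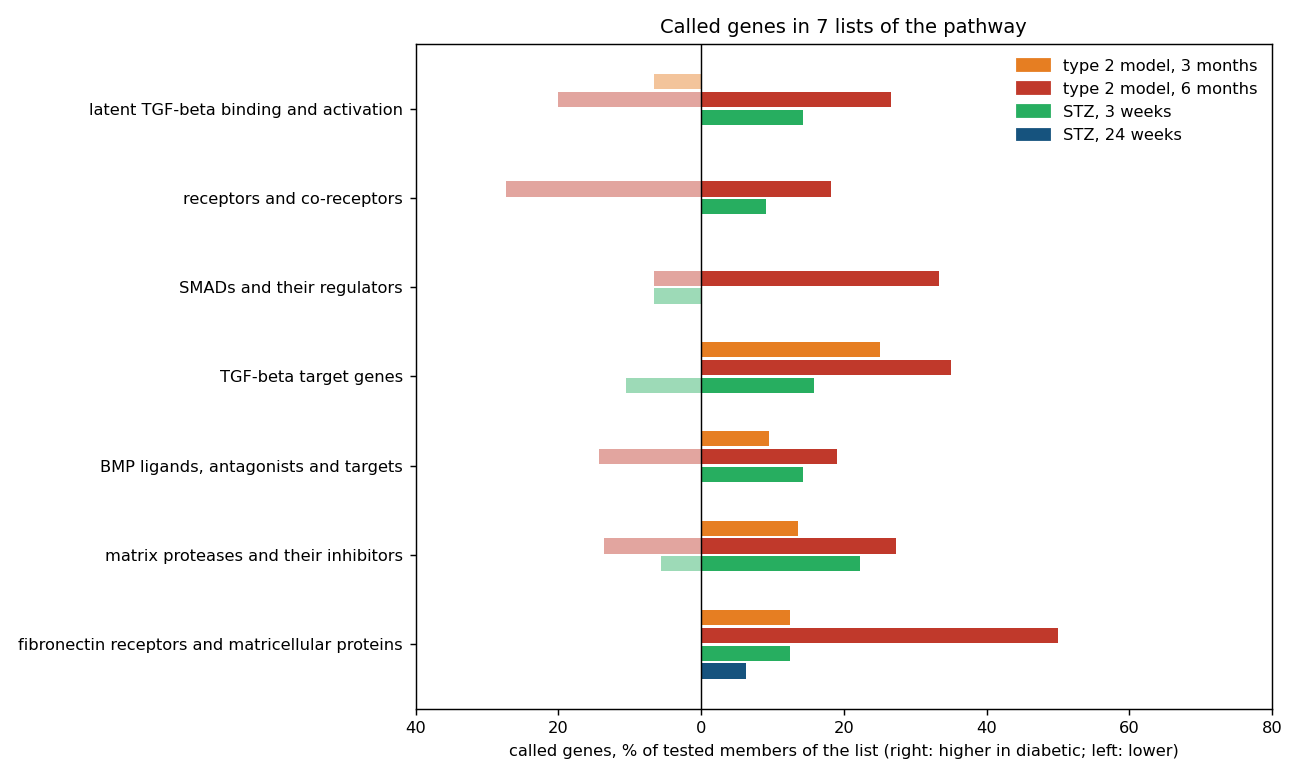
Share of the tested genes of each of 7 pathway lists called in diabetic against control libraries, higher to the right (full colour) and lower to the left (pale), in the 4 comparisons. The longest bar is that of fibronectin receptors and matricellular proteins at 6 months in the type 2 model, 8 of 16, all higher, and receptors are the one list with more lower than higher calls there, 3 and 2 of 11.

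Over all 36 TRAP libraries the log2 CPM of Tgfb1 correlated with that of Tgfb2 (Pearson r = 0.73) and Tgfb3 (0.68), and Tgfbr1 with Fn1 (0.81) and Tgfbi (0.73). With each group's mean removed these became 0.52, 0.58, 0.68 and 0.56. The coefficient of Thbs1 with Tgfb1 was 0.08, and 0.21 with group means removed. Bmp7 had coefficients of -0.47 with Tgfbr1, -0.30 with Fn1 and 0.28 with Tgfb2, which became -0.24, -0.21 and 0.43. Among 9344 genes with a mean of at least 10 CPM, those most like Tgfb1 were Marcks (0.88), Zyx (0.87) and Pdlim7 (0.87), which encode proteins of the actin cortex and focal contacts. Among those most like Tgfb2 were Tagln (0.87) and Cald1 (0.84), among those most like Timp1 were Frem1 (0.79) and Pdlim7 (0.77), and those most like Bmp7 were Atp1b2 (0.73), Ext2 (0.72) and Hcfc1r1 (0.69). These coefficients describe libraries that share depth, marker content and group, so no p is given.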

How the data were processed

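RNA sequencing of 36 podocyte TRAP libraries and 1 whole-kidney library was deposited as raw counts per gene and as FPKM computed by the authors. Per the submitters' processing notes, cutadapt 1.16, STAR, FastQC and featureCounts 1.15.2 were named. Their notes name mm9, whereas 99.981% of 31871 genes matched by ID overlap their GRCm38 positions. The deposited FPKM equalled count over length and library total. Groups came from the labels.

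Differences were tested on the counts with edgeR 4.0.16 (R 4.3.3), by the quasi-likelihood test with TMM scaling, filterByExpr and Benjamini-Hochberg adjustment at 0.05, over 17180 genes in 17 libraries of the type 2 model, 16279 genes in 19 libraries of the STZ model, and 18511 genes in all 36 for differences between models. Whole kidney was compared in CPM with no test. The code was tested on simulated data. Same-group libraries differed beyond counting noise, so none was counted as a duplicate.

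The 9 genes and all pathway and marker lists were chosen with earlier results of these data known. All 9 genes are named. Pathway genes named with values are up to 3 per list and comparison with the lowest p among those called, and Tgfbr2 and Acvrl1 at 6 months were named after their values were seen. For Tgfb1, Tgfb2, Timp1 and Bmp7 the 3 genes of highest Pearson r are named. One gene that these rules select is not reported here. Alternatives were DESeq2 1.42.0, limma 3.58.1 on log2(FPKM + 0.1), other scalings, filters and sample sets, a replicate block and leaving out each library. Leaving out libraries 4 and 5 of 2 diabetic groups was added after seeing the data.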

Additional observations from a re-analysis of the deposited data

Results flagged for a closer look

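Among 63 sets of a gene's values in a group of 4 or 5 TRAP libraries, 6 held a library far from the others by Dixon's test. Chance alone does so in about 1 of 20 sets of normally distributed values. Timp1 accounted for 3 of the 6. It was 16.1 CPM in diabetic library 4 of the type 2 model at 3 months, where the next library had 4.19 CPM. It was 0.910 CPM in control library 4 at 3 weeks of the STZ model, where the other controls had no read, and 2.95 CPM in control library 4 at 24 weeks, where the next had 0.294 CPM. At 3 weeks any read in that library would have been flagged, because the other values were 0. Tgfb2 was 16.1 CPM in diabetic library 4 at 24 weeks of STZ, against 5.31 CPM in the next. Bmp7 was 405.5 CPM in eNOS-/- control library 2 at 6 months, against 172 CPM in the next, and Tgfbi was low, at 4.92 CPM, in control library 3 of the same group, where the next had 8.35 CPM. The early change of Thbs1 differed between the models by -1.38 on the log2 scale (type 2 minus STZ), as tested by the interaction in edgeR.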

How the results depend on the processing

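Of the 9 genes, 4 were called in the type 2 model at 3 months, 1 with a replicate block, 0 without diabetic libraries 4 and 5 and 2 to 5 with a library left out. The counts over all genes were 685, 403, 418 and 404 to 737 in the same order. At 6 months 5 were called, 8 by DESeq2 and 5 to 7 with a library left out. Over all genes these counts were 3934, 4878 and 1932 to 5350. At 3 weeks of STZ 2 were called, 2 to 3 with a library left out. Of all genes 1058 were called there, and 611 to 1350 with a library left out. At 24 weeks 1 was called, and 0 with the replicate block, with no filter on low counts, by limma on FPKM or with only the 2 groups fitted, and 0 to 1 with a library left out. Counts over all genes were 146, then 82, 116, 128 and 193, and 67 to 262 with a library left out. For the difference of 6 and 3 months, 0 were called, 1 by DESeq2 and 0 to 4 with a library left out. Beside them stand 0, 576 and 0 to 1911 of all genes. For the early difference between models 1 was called, and 0 by RLE size factors or the replicate block, 0 to 1 with a library left out. There 174 of all genes were called, 175 by RLE, 118 with the block and 75 to 243 with a library left out. For the late difference between models 0 were called, 2 by DESeq2 and 0 to 2 with a library left out. All genes gave 81, 470 and 4 to 549 calls. Of the pathway genes, 13 were called at 3 months, 29 by DESeq2, 4 with the replicate block, 8 by limma, 3 without libraries 4 and 5 and 6 to 19 with a library left out. DESeq2 and limma called 1252 and 471 of all genes at 3 months. At 6 months the 48 became 27 to 50 and at 3 weeks the 18 became 10 to 22 with a library left out. At 24 weeks the 1 became 5 by DESeq2, 0 with the replicate block or no filter, 3 by limma, 4 with only the 2 groups, 2 with all 36 libraries and 0 to 3 with a library left out. DESeq2 and the fit of all 36 libraries called 423 and 271 of all genes at 24 weeks. In the kidney comparison 3 genes had a mean TRAP level above kidney, and 3 to 4 with a library left out. Timp1 at 6 months (adjusted p = 0.0506) was called with RLE size factors, DESeq2, a stricter filter, limma or only the 2 groups fitted, and Tgfb3 and Thbs1 at 6 months by DESeq2. Some uncalled changes turned sign. Bmp7 at 3 weeks (-0.0063) was 0.13 with the replicate block, 0.037 with no filter, 0.21 by limma, 0.0030 with all 36 libraries, 0.092 without diabetic libraries 4 and 5 and -0.17 to 0.27 with a library left out (0.097, 0.027 and 0.063 among them). Bmp7 at 24 weeks was -0.031 to 0.13 (-0.0078 and -0.029 among them) and Tgfb2 at 24 weeks -0.34 to 0.47 with a library left out. Tgfbi at 3 months was -0.0093 without libraries 4 and 5. The cause was not tested. Over the alternatives, 872 values for single genes were counted as unchanged, 45 lost and 27 gained a call, and 14 turned sign. For a log2 change, unchanged means the same direction and side of the threshold. The 872 also hold the ratios to kidney, which have no threshold and were counted as unchanged when they moved by less than their SD. Libraries of the same number correlated by -0.32 to 0.50 in their deviations from the group means. The labels do not say whether the numbers pair libraries, and these values do not settle it. Depth limits Timp1, where 3 reads correspond to 0.149 to 0.275 CPM in libraries with none.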
